A study of Homo sapiens with 8 samples.

Results

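The regions described here gained H3K27ac in 5-FU-resistant colon cancer cells without any H3K23su peak. They were chosen by presence in peak lists: an H3K27ac region had to appear in the lists of both resistant libraries but in no parental list, and no peak of any of the 4 H3K23su lists could overlap it. Peaks of the 4 H3K27ac lists that overlapped or touched formed 133786 regions. Of these, 12147 (9.08%) met the first condition and are called FR-only, while regions with the reverse pattern are called Pa-only. The 3242 FR-only regions without H3K23su, called members below, were 2.42% of all H3K27ac regions and covered 1.55 Mb. The other 8905 FR-only regions overlapped at least 1 H3K23su peak.

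HCT15 is an established human colorectal cancer cell line. HCT15-Pa is its parental line, labelled as treated with the solvent DMSO, and HCT15-FR its resistant derivative, labelled as treated with 20 μg/ml of 5-fluorouracil (5-FU), a drug that blocks thymidylate synthesis and is incorporated into RNA and DNA. By the study's methods, HCT15-FR cells spent the last 3 days before experiments without the drug. CUT&Tag, in which an antibody directs a transposase to chromatin, was run with 2 libraries per line and mark, 8 in all. The labels do not say whether HCT15-FR is 1 clone or whether replicate libraries came from separate cultures, so their spread may be technical. The H3K27ac lists held between 70600 and 76676 peaks and the H3K23su lists between 65364 and 68365. Read depth is unknown from these lists, so a missing peak means that none was detectable at the authors' threshold. In bulk chromatin, a gain of the mark in more cells and more of the mark per cell cannot be told apart. H3K27ac lay within 2 kb of a transcription start site (TSS) in all 4 libraries for 9 of 10 colon epithelium markers. CDX1, the exception, had peaks in the HCT15-FR libraries only. Of 9 markers of blood, fibroblasts and endothelium, 2 had such a peak in all 4 libraries and 4 in none.

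H3K27ac is acetylation of lysine 27 of histone H3, written mainly by EP300 and its paralog CREBBP, and is found at active promoters and enhancers. Succinylation of lysine 23 of the same histone (H3K23su) places a larger, negatively charged group on a nearby residue. Enhancers are short stretches of DNA where transcription factors bind, often far from the gene they act on. Pioneer factors of the FOX and GATA families and AP-1, the dimer of FOS and JUN proteins, commonly bind enhancers of epithelial cells.

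The sequences of the highest-ranked members show what such regions look like at base level. Members were ranked by the lower of their 2 HCT15-FR percentiles, where a percentile is the position of a peak's score among all peaks of its own list. The score is −log10 of a peak's MACS2 P value, as deposited. The 201 bases around the midpoint of the first 2 are printed from hg19, plus strand, with motif cores in capitals. They lie at chr4:75458727-75458927 and chr5:127772417-127772617.
AREGB: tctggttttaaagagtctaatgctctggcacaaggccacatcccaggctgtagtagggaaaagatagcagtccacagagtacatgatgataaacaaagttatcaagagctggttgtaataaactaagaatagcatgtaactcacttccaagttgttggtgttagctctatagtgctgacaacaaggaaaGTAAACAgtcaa
FBN2: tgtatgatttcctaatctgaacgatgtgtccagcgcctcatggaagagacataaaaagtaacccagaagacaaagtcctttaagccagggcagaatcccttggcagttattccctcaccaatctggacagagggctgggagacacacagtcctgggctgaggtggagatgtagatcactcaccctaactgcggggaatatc

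The AREGB window held 1 FOX core, GTAAACA, near its end, and the FBN2 window held none of the 10 cores searched. The next lines show the AP-1, GATA and TEAD cores in the highest-ranked member that held each, with 50 bases on either side. These lie at chr4:75458889-75458995, chr1:229307860-229307966 and chr1:229307761-229307867, the last 2 in the same member.
AREGB AP-1: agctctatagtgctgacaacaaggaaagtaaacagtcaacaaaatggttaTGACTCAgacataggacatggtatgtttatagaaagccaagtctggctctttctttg
RAB4A GATA: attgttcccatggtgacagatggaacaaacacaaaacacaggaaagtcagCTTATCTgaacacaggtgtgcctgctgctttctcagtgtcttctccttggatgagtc
RAB4A TEAD: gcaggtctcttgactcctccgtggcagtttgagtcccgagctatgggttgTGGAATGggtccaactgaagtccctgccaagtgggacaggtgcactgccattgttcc

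The GATA and TEAD cores were read on the minus strand, as AGATAAG and CATTCCA. In the AREGB member the FOX and AP-1 cores lay within the same stretch of the AP-1 line, where the FOX core is in lower case.

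Members had weak H3K27ac peaks and were narrower than the other FR-only regions. Since presence in the lists chose the members, these values are descriptions. In HCT15-FR library 1 the member scores ran from 2.90 through a median of 4.04 to 12.0, and in library 2 from 2.91 through a median of 4.11 to 13.2. The other FR-only regions had medians of 4.60 and 4.69 and reached 20.6 and 22.4. The median member percentile was 33.8 in library 1 and 36.0 in library 2, against 47.3 and 49.3 for the other FR-only regions. Both peaks lay in the upper 50% of their lists in 472 members, 14.6% of them, against 33.0% of the other FR-only regions. The median width was 430 bp (range 146 to 2544), against 611 bp for the other FR-only regions. It was close to the median of all H3K27ac regions (416 bp) and of Pa-only regions without H3K23su (436 bp). Presence in both HCT15-FR libraries set the number of members. Without HCT15-FR library 1 of H3K27ac the same rule gave 13330 regions, and without library 2 it gave 12364.

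**Figure D1:**
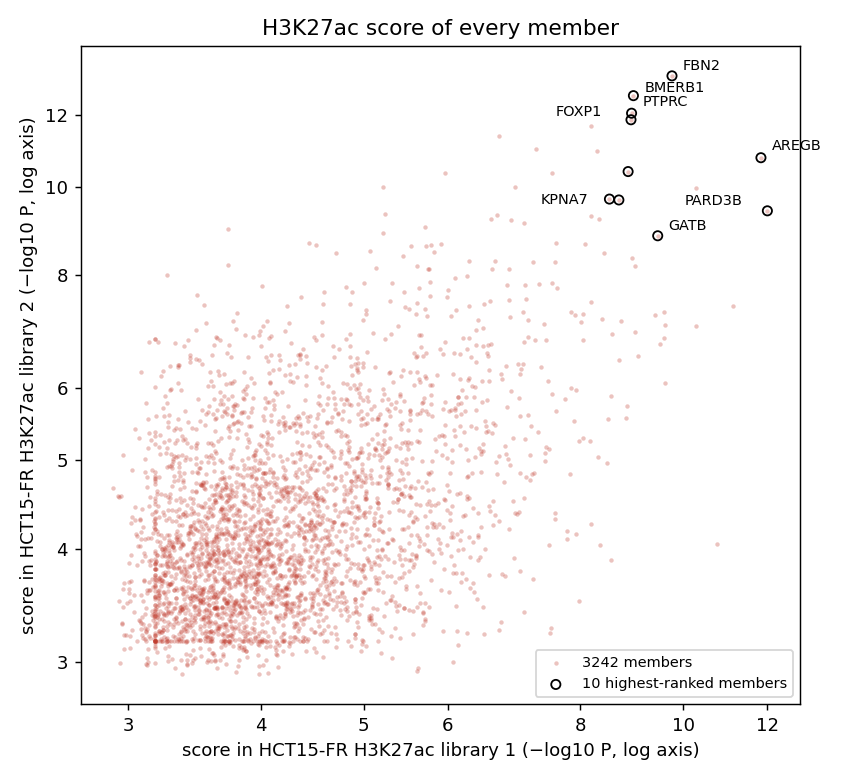
Each point is 1 of the 3242 members, placed by its H3K27ac score (−log10 of the MACS2 P value) in HCT15-FR library 1 (x) and library 2 (y), both on log axes. Most members crowd near the lower end of both axes, and the circles mark the 10 highest-ranked members, those with the highest lower percentile on autosomes other than chromosome 8.

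The share of FR-only regions that lacked H3K23su fell with the strength of the weaker H3K27ac peak. When the 12147 FR-only regions were divided into quintiles of the weaker percentile, 41.3% of the weakest quintile were members (exact 95% interval 39.3 to 43.3), then 33.6%, 26.6% and 20.3%, and 11.6% of the strongest quintile (10.4 to 12.9). By width, the share went from 45.5% in the narrowest quintile to 8.77% in the widest. A wide region has more bases in which an H3K23su peak can fall, and the part of width in these shares was not tested.

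Lack of H3K23su was less common among gains of H3K27ac than among its losses. Over both lines, 26.7% of FR-only regions lacked it (25.9 to 27.5). For Pa-only regions, which were 4.53% of all H3K27ac regions, the share was 42.1% (40.8 to 43.3). Among the 33732 regions of all 4 H3K27ac libraries it was 5.17% (4.94 to 5.41). Over all H3K27ac regions it was 43.5% (43.2 to 43.8), close to the Pa-only share. That total includes regions found in a single library, which numbered between 12962 and 17447 per library. Between 66.4% and 74.4% of these lacked H3K23su, so the total is no norm for regions found in several libraries. All intervals over regions cover counting error only, since regions are not replicates of a line. The same order held per library. Of all H3K27ac peaks, 31.2% and 30.6% lacked H3K23su in HCT15-Pa cells, against 25.5% and 26.2% in HCT15-FR cells. The means were 30.9% ± 0.426 and 25.9% ± 0.486 (SD, n = 2 each), and both HCT15-FR values lay below both HCT15-Pa values. The difference, HCT15-FR minus HCT15-Pa, was -5.05 percentage points, with a two-sided exact permutation p of 0.333, the smallest that 2 libraries against 2 can give. It was -3.25 points without HCT15-FR library 1 of H3K23su and -3.22 without library 2. In every library the peaks lacking H3K23su were weaker, with median scores from 3.69 to 3.77, than those with it, with medians from 4.93 to 5.47. The lists also differed by line. H3K23su peaks covered at least 39.4 Mb in each HCT15-FR library and at most 33.5 Mb in each HCT15-Pa library. H3K27ac peaks covered at least 46.3 Mb in HCT15-FR and at most 39.5 Mb in HCT15-Pa. Their median scores were 4.74 and 4.73 in HCT15-FR and 4.33 and 4.37 in HCT15-Pa. The part of coverage and strength in the difference between gains and losses was not tested.

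The edge of the rule was sharp in bases. The members nearest to an H3K23su peak were those nearest PWWP2B and CAST, 3 and 5 bp away from one. The FR-only regions just outside the rule, nearest FRMPD3 and ANAPC1, shared 2 and 4 bp with one. In all, 59 members had an H3K23su peak within 100 bp, and 183 other FR-only regions had 100 bp or less under one. Of the other FR-only regions, 27.5% met H3K23su in 1 list only, 46.3% in 2 lists and 9.84% in all 4.

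Members lay between genes more often than the FR-only regions that carried H3K23su. By the midpoint, 32.2% of members were intergenic (30.6 to 33.8) against 23.1% of the other FR-only regions, a difference of 9.12 percentage points (95% Newcombe interval 7.30 to 11.0). Introns held 51.9% of members (50.2 to 53.7) and 62.6% of the others, a difference of -10.6 points (-12.6 to -8.64). The intergenic surplus was present in each quintile of strength, between 8.19 and 11.7 points, and each of these intervals lay above 0. It was also present in each quintile of width, between 6.13 and 11.2 points, each with an interval above 0.

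A promoter reached from 1 kb before a TSS of any annotated transcript to 100 bp past it. Promoters had close shares in members and in the other FR-only regions. They held 266 members, 8.20% (7.28 to 9.20), and 8.16% of the other FR-only regions, with an interval of the difference from -1.03 to 1.18 points. All H3K27ac regions had 14.8% in promoters. Among regions without H3K23su, Pa-only regions had 12.1% and regions of all 4 libraries 16.8%, and members lay below the former by 3.90 points (interval of members minus Pa-only -5.50 to -2.34). Of the 266 promoter members, 175 were at a protein-coding TSS and 91 only at TSSs of other gene types. Their windows had a median GC content of 58.1% and 48.9%.

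**Figure D2:**
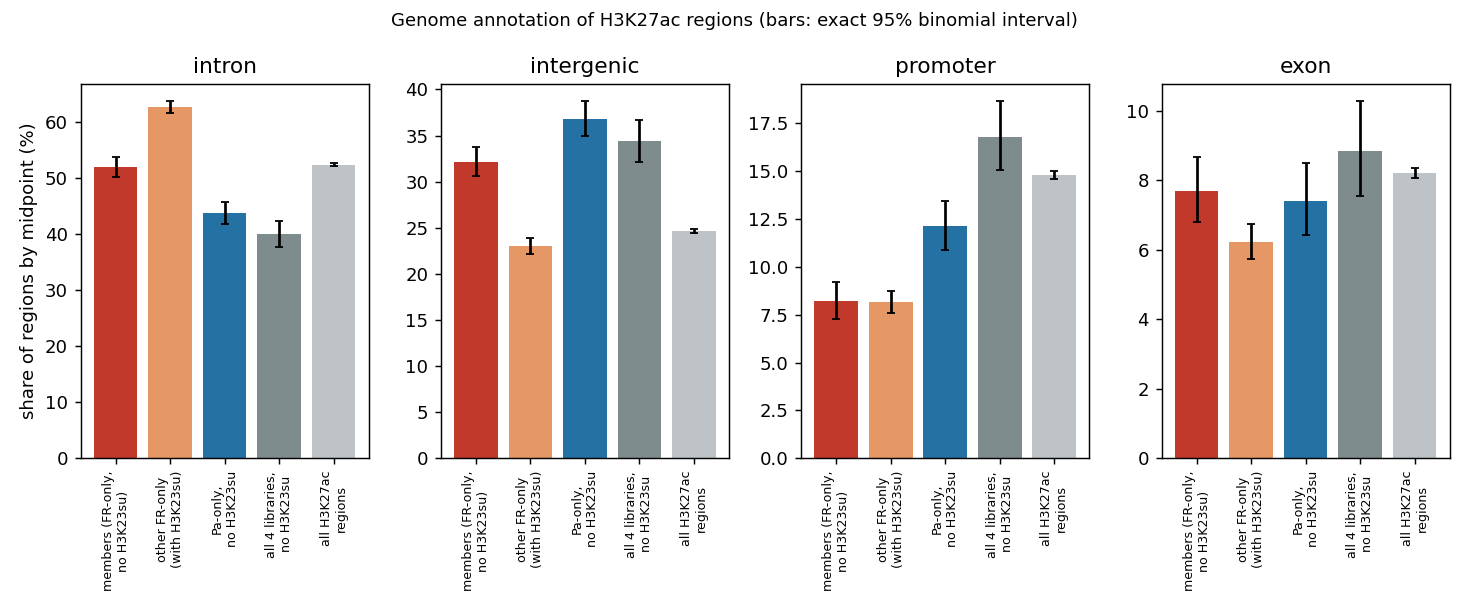
Bars give the share of regions (%) whose midpoint lies in an intron, between genes, in a promoter or in another exon, for 5 classes of H3K27ac regions, with exact 95% binomial intervals as error bars; each panel has its own axis from 0. Members (red) have 51.9% in introns and 32.2% between genes, against 62.6% and 23.1% in the other FR-only regions (orange).

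The base composition of members was broad. Within 200 bp of the midpoint their median GC content was 47.6%, against 45.6% for the other FR-only regions, 56.1% for Pa-only and 57.1% for all-library regions without H3K23su. Windows under 40% GC made up 21.7% of members and 19.7% of the other FR-only regions. Windows of 60% GC or more made up 15.7% and 7.75%. In the weakest quintile, 23.2% of members had 60% GC or more and 12.7% had under 40%. In the strongest quintile the shares were 5.67% and 40.8%.

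An AP-1 core was the most frequent of the 10 cores in members. This core, TGANTCA, allows any base at N and so matches more sequences than the other 7-base cores. Part of its rank may therefore be set by the patterns, and shares for the core with only C or G at N are not reported here. Each core was sought on both strands within 200 bp of the midpoint. TGANTCA, the AP-1 core, was found in 28.1% of members (26.6 to 29.7), against 14.9% of Pa-only regions without H3K23su, 20.9% of all-library regions without it and 17.7% of all H3K27ac regions. Members exceeded the Pa-only regions by 13.2 points (11.1 to 15.3). Without HCT15-FR library 1 or 2 of H3K27ac the AP-1 share of members was 18.2% or 18.1%, and the excess 4.05 or 3.24 points. The other FR-only regions had 31.6%, so members were lower by 3.46 points (interval of members minus others -5.26 to -1.62). The deficit was -0.721 points without HCT15-FR library 2 of H3K23su (-2.43 to 1.00), and -9.10 or -8.98 without HCT15-FR library 1 or 2 of H3K27ac. That last difference depended on strength. In the weakest quintile of FR-only regions, 20.7% of members and 26.1% of the others held the core, a difference of -5.33 points (-8.68 to -1.90), and in the next the difference was -5.80, also with an interval below 0. In the middle quintile members were above the others, with 33.5% against 29.0% (difference 4.58, 0.449 to 8.84), and in the next the interval spanned 0. In the strongest quintile 39.0% and 36.0% did, with an interval from -2.86 to 9.16 that spans 0. With the stronger 50% of each list the sign turned, and members exceeded the others by 4.82 points (2.22 to 7.45).

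**Figure D3:**
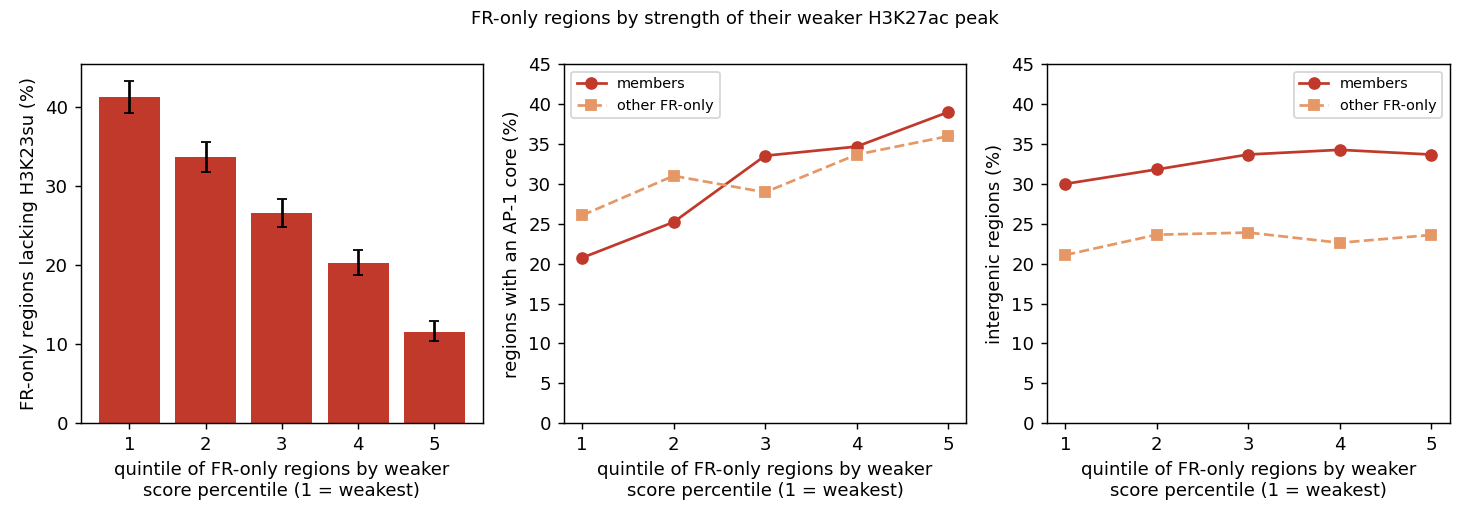
FR-only regions are divided into quintiles by the percentile of their weaker HCT15-FR H3K27ac peak (x, 1 is the weakest); the panels show the share lacking H3K23su with its exact 95% interval, the share with an AP-1 core and the intergenic share (%), for members (red) and other FR-only regions (orange). The share lacking H3K23su goes from 41.3% to 11.6%, the AP-1 lines cross, and the intergenic lines stay apart.

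The other cores ran in parallel. The FOX core GTAAACA was in 11.4% of members, 13.7% of the other FR-only regions and 4.27% of Pa-only regions without H3K23su, and members exceeded the last by 7.08 points (5.73 to 8.43), or by 2.73 and 2.33 without HCT15-FR library 1 and 2 of H3K27ac. For the GATA core AGATAAG the shares were 8.36%, 9.49% and 3.10%. The core CTTTGAT of TCF and LEF factors, which act in Wnt signalling, was in 8.33%, 10.3% and 2.82%. The RUNX core AACCACA was in 10.3%, 10.9% and 6.31%, and the HNF4 core CAAAGTNCA in 2.31%, 3.74% and 1.14%. Each of these 4 cores was more frequent in members than in Pa-only regions, with intervals of the difference above 0. For RUNX, the intervals of the member and Pa-only shares overlapped in every range of GC. From 40% to under 50% GC its shares were 12.6% and 9.88%. In that range the intervals did not overlap for GATA (10.9% against 5.85%) or TCF/LEF (10.4% against 4.64%).

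The remaining cores did not follow this order. The TEAD core CATTCCA was in 7.99% of members and 7.56% of Pa-only regions without H3K23su, with an interval of the difference from -0.978 to 1.80. In windows from 40% to under 50% GC, however, the TEAD shares were 9.19% (7.57 to 11.0) and 14.1% (11.2 to 17.5). Members were also lower under 40% GC (11.6% against 19.3%) and at 60% or more (1.77% against 2.93%), with overlapping intervals. From 50% to under 60% GC the shares were 7.11% and 7.21%. The ETS core CAGGAAG went the other way, with 15.5% against 20.2% (interval -6.73 to -2.74), as did the KLF core CCACACCC with 5.80% against 7.52% (-3.05 to -0.436). TGACGTCA, the CRE core, was rare, in 0.278% of members. It has 8 bases and reads the same on both strands, so fewer sequences match it than the other cores. KLF and RUNX cores can overlap where a sequence holds both, as can TCF/LEF and HNF4 cores. A match is a run of letters and not a measured binding site.

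Base composition moved with these shares. Among windows under 40% GC, 47.1% of members and 38.5% of the other FR-only regions held an AP-1 core, a difference of 8.62 points (4.30 to 12.9). From 50% to under 60% GC the shares were 16.0% and 24.4% (difference -8.41, -11.4 to -5.28). Against Pa-only regions without H3K23su, the AP-1 share of members was higher from 40% to under 50% GC, with 36.4% against 27.6% (difference 8.77, 3.85 to 13.5). In the other 3 ranges of GC its interval spanned 0. Against all-library regions without H3K23su the AP-1 share of members was lower in each range of GC, with members minus all-library between -4.52 and -1.10 points, while over all ranges together it was higher. The interval lay clear of 0 only at 60% GC or more, where 4.33% of members and 8.54% of the all-library regions held the core (difference -4.21, -7.00 to -1.34). The FOX core was more frequent in members than in Pa-only regions in each of the 3 ranges below 60% GC, from 13.7 points under 40% GC (4.24 to 18.4), where there were 57 Pa-only regions, to 3.88 points from 50% to under 60% GC (1.74 to 6.18).

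Cores were concentrated at the centre of members. AP-1 cores occurred 0.969 times per kb within 100 bp of the midpoint and 0.308 times per kb from 500 to 1000 bp away, a ratio of 3.15. The ratio was 3.13 in the other FR-only regions, 1.86 in Pa-only and 2.66 in all-library regions without H3K23su. For FOX cores the ratios were 2.74 in members, 2.76, 1.12 and 1.76. GATA cores were 2.01 times as dense at the centre of members and 0.497 times as dense at the centre of Pa-only regions without H3K23su. These densities are descriptions, and GC content also changed towards the centre, from 45.6% at 900 to 1000 bp to 49.3% within 100 bp in members and from 47.3% to 56.6% in Pa-only regions.

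**Figure D4:**
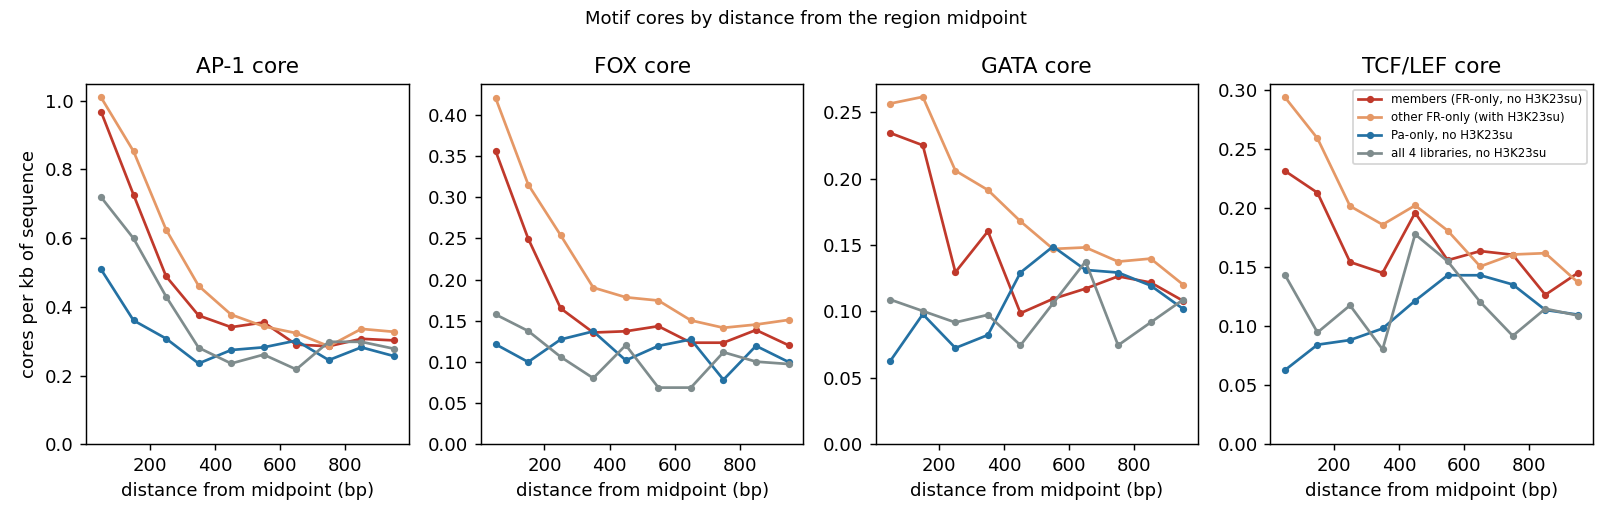
Density of motif cores (per kb of sequence, y) by distance from the region midpoint (bp, x, bins of 100 bp on both sides together) for AP-1, FOX, GATA and TCF/LEF, in 4 classes of H3K27ac regions; each panel has its own axis from 0. Lines for members (red) and other FR-only regions (orange) rise towards the midpoint in all 4 panels, from 0.308 to 0.969 AP-1 cores per kb in members.

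Within members, AP-1 followed the annotation. The core was in 30.7% of intergenic members (27.9 to 33.6) and 30.0% of intronic ones (27.9 to 32.3), against 18.0% of promoter members (13.6 to 23.2) and 15.3% of exonic ones (11.0 to 20.3). Median GC content was 46.6% and 46.9% in the first pair and 55.5% and 54.6% in the second.

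Members rarely lay far from other marked chromatin. The median distance to the nearest H3K23su peak was 4939 bp, and 70.0% of members had one within 10 kb. So did 51.8% of Pa-only and 65.9% of all-library regions without H3K23su. Absence of overlap is part of the rule, so these distances are descriptions. Of the 2270 members with an H3K23su region within 10 kb, that region was in 1 list for 47.4%, in all 4 lists for 23.4%, FR-only for 9.78% and Pa-only for 3.66%. For Pa-only H3K27ac regions without H3K23su it was in 1 list for 54.6% and in all 4 for 18.4%. For all-library regions without H3K23su these shares were 43.8% and 28.8%. A parental H3K27ac peak lay within 10 kb of 66.8% of members. Regions with H3K27ac in all 4 libraries were within 10 kb of 36.2% of members and 36.7% of the other FR-only regions (interval of the difference -2.48 to 1.38), against 24.1% of Pa-only regions without H3K23su.

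An FR-only region with H3K23su lay within 10 kb of 15.5% of members and 18.0% of the other FR-only regions (members minus others -3.98 to -1.02). Within 100 kb the shares were 64.0% and 70.2% (-8.06 to -4.25). Most members stood alone, since joining members within 12.5 kb left 2994 single members, 114 pairs and 6 groups of 3 or more. The largest groups held 4 members. One lay in an intron of ARHGAP18 at chr6:129962341-129977522, and the other near PAX5 at chr9:36847420-36873694.

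The 10 members with the highest lower percentile, on autosomes other than chromosome 8, had scores from 8.52 to 12.0 in library 1 and from 8.83 to 13.2 in library 2. The first lay at chr4:75458614-75459040, 21802 bp from the TSS of AREGB, in introns of antisense genes, with scores of 11.8 and 10.8. AREG encodes amphiregulin, a ligand of EGFR, and AREGB is a second copy of it in hg19. A further member, at chr4:75288819-75289346 and 21770 bp from the AREG TSS, had scores of 5.79 and 8.63. Over 408 aligned bases the 2 members were 100% identical, so reads from either copy cannot be told apart there and both values are uncertain. In an AREG intron another member, chr4:75316928-75317202, scored 5.91 and 8.65. It was not aligned with the other copy, so its values may be uncertain too.

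Other members of the 10 lay at genes of extracellular matrix, polarity and leukocytes. The member in an intron of FBN2, which encodes the matrix protein fibrillin-2, lay at chr5:127772136-127772898 and scored 9.76 and 13.2. It was isolated, with 236742 bp to the nearest H3K23su peak and 218851 bp to the nearest parental H3K27ac peak. Near PARD3B, a paralog of a cell polarity protein, chr2:205398455-205399007 scored 12.0 and 9.41. The intron of PTPRC, which encodes the leukocyte phosphatase CD45, held chr1:198651005-198651566 with 8.94 and 12.0. No library had H3K27ac within 2 kb of the PTPRC TSS.

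The FOXP1 intron member, chr3:71097981-71098646, scored 8.93 and 11.8 and lay 804 bp from an FR-only region with H3K23su. At BMERB1, chr16:15670613-15671725 scored 8.98 and 12.6. Its midpoint fell in an intron, 178 bp from a TSS, and part of the region reached into the promoter. Near GATB, which encodes a subunit of a mitochondrial amidotransferase, chr4:152717912-152718680 scored 9.46 and 8.83 and held an HNF4 core. The intron of KPNA7, which encodes an importin, held chr7:98827590-98828350 with 8.52 and 9.69.

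When members were assigned to the nearest protein-coding TSS within 100 kb, 2731 of the 3242 fell to 2312 of 20162 protein-coding genes (11.5%). Most of these genes had a single member. There were 1976 with 1, 273 with 2 and 63 with 3 or more. Without HCT15-FR library 1 or 2 of H3K27ac, 6896 or 6615 genes had a member. Assignment went by distance, so a member can lie inside another gene than the one it is given to. The members given to SKI and KRT18, for example, lay in MORN1 and KRT8. Genes differ in length and in how many H3K27ac regions they hold, so members are also given below as a share of the H3K27ac regions assigned to the same genes, which was 2.32% over all protein-coding genes.

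AKR1E2, which encodes an aldo-keto reductase, had 6 members among its 17 assigned H3K27ac regions, 1 other FR-only region and 1 region of all 4 libraries. Upstream of it lay 5 of the 6, from 94747 to 10319 bp before the TSS. Their scores lay between 4.17 and 7.01 in library 1 and between 3.99 and 5.86 in library 2. The sixth, at chr10:4894025-4894635 and 12354 bp from a TSS, was the strongest with 10.3 and 7.02. Of the 6, 3 held an AP-1 core. BCOR, which encodes a corepressor of BCL6, had 6 members among 39 regions, all in its introns. Their scores lay between 3.58 and 4.34 in library 1 and between 3.10 and 6.73 in library 2.

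**Figure D5:**
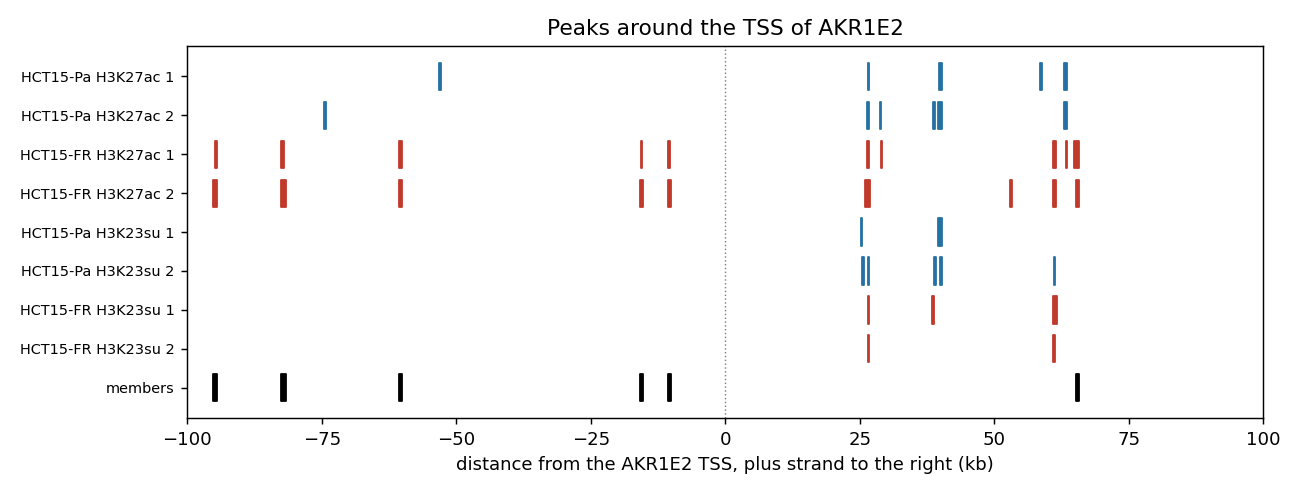
Peaks of the 8 lists (HCT15-Pa in blue, HCT15-FR in red) and the members (black) within 100 kb of the TSS of AKR1E2, by distance from that TSS (kb, x, plus strand to the right); peaks under 0.25 kb are drawn 0.25 kb wide. Upstream of the TSS, 5 members stand where no H3K23su list has a peak and each parental H3K27ac list has 1 peak elsewhere.

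Next came IGSF21, which encodes a synaptic adhesion protein, with 5 members of 32 regions, and PRDM16, a transcription factor of brown fat, with 5 of 65. Of the 10 genes with the most members, ties taken by symbol, 6 had 4. These included ARHGAP18, which encodes a GTPase-activating protein, with 4 of 24 regions, ATXN1 with 4 of 25, DOCK4, a GTPase activator, with 4 of 17, and LARP1B, an RNA-binding protein, with 4 of 13. At ARHGAP18, ATXN1 and DOCK4 the other FR-only regions numbered 7, 5 and 6. Of the 10 genes, AKR1E2 had 1 Pa-only region and PRDM16 had 2, and the others had none. Pa-only regions were 4.53% of all H3K27ac regions, so few would fall to any 1 gene.

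FOXP1, a forkhead transcription factor, had 4 members and 15 other FR-only regions among 28, with 2 regions of all 4 libraries. Beside the member described above, its members scored 6.28 and 6.82, 5.25 and 4.76, and 5.03 and 7.31 in the 2 libraries. A FOX core lay in 2 of the 4 and an AP-1 core in the other two.

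The genes named in the study had members at 9 of 27, or 14 of 360 regions (3.89%). Besides FOXP1 they were FLT1, a VEGF receptor, FOXO1, a forkhead factor, IL33, a cytokine, KLF3 and KLF6, zinc finger factors, MITF, RAMP1, a receptor partner, and SEMA3C, a secreted semaphorin. SEMA3C had 1 member at chr7:80529977-80530395, in its intron, with scores of 4.12 and 5.95, beside 4 other FR-only regions. It held AP-1 and ETS cores. At KLF6, chr10:3916080-3916476 lay 88805 bp from the TSS and scored 6.27 and 4.81, and at RAMP1 an intronic member scored 6.23 and 5.67. FOSL2, EGFR, MET, FOXA1, RUNX2, NOTCH3, CD44 and GFPT1 had none, and EGFR and MET had 5 other FR-only regions each. The study chose its genes from these same libraries, so this count is not independent evidence of a direction.

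Of 17 genes of AP-1 factors and their dimer partners, 4 had 6 members (4.96% of 121 regions). They were FOS and JUN, the founding subunits, BATF3 and MAF. The JUN member, chr1:59271526-59271929, lay 22008 bp from the TSS and 77 bp from an H3K23su peak, held AP-1 and FOX cores, and scored 5.43 and 4.20. At FOS, chr14:75777121-75777774 scored 3.87 and 4.28. Both BATF3 members held AP-1 and RUNX cores and scored 4.30 and 5.48, and 5.65 and 4.47.

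Wnt signalling genes had members at 13 of 63 (2.13% of 705 regions). Ligands were WNT16, with 3 members, and WNT11. Secreted inhibitors were DKK1, SFRP2 and WIF1, and the receptors FZD10 and ROR2. APC, AXIN2 and NKD2 restrain the pathway inside the cell. LEF1, TCF7 and TCF7L1 are its transcription factors. The strongest was a WNT16 member at chr7:120938868-120939142, with 5.02 and 7.24. The other 2 WNT16 members lay in introns of another gene, CPED1, and their scores ran from 3.18 to 4.21. The LEF1 intron member scored 3.74 and 3.82, and DKK1 had 3.47 and 5.42.

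Receptor tyrosine kinases and their ligands had members at 10 of 50 genes (2.30% of 566 regions). The ligands were AREG, TGFA, NRG2 and NRG4, all of the EGF family, and the AREG members carry the uncertainty described above. The receptors included FLT1, EPHA2, EPHB2, EPHB3 and FGFR4. TGFA had an intronic member with 4.68 and 5.95. For the Hippo pathway, which restrains the coactivators of TEAD factors, the count was 7 of 30 genes (2.38% of 378 regions). WWTR1, which encodes the coactivator TAZ, had an intronic member at chr3:149364097-149364399 with 6.68 and 9.32 and an AP-1 core, and a weak one with 3.18 and 3.17. RASSF6 had an intronic member with 7.07 and 7.28. The kinases and scaffolds LATS2, SAV1, TAOK3 and WWC2 had 1 each.

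TGF-β and BMP genes had members at 10 of 39 (2.40% of 500 regions). TGFBR3, the accessory receptor betaglycan, had 3, of which chr1:92151544-92152075 scored 7.39 and 7.07. Ligands were BMP7 (5.13 and 8.15) and INHBB, and receptors ACVR2A and BMPR1B. SMAD2 is a signal transducer, while SMAD6, SMAD7, SKI and SMURF1 dampen the pathway.

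Intestinal identity factors had members at 9 of 25 genes, 1 each (3.47% of 259 regions). TFF3, a trefoil peptide of goblet cells, had one 3987 bp from its TSS with 7.75 and 5.83. ASCL2, a factor of intestinal stem cells, had one in its promoter with 5.61 and 4.31, and MUC2, the main intestinal mucin, one with 3.43 and 6.48. KLF4 had 4.81 and 5.85, and ISX and ONECUT2 also had a member.

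Matrix, guidance, adhesion and transition genes held between 1.63% and 3.70%. Integrins, laminins and matrix genes had members at 9 of 44 (1.84% of 488 regions), among them FN1 (fibronectin), LAMB1, ITGB4 and ITGB5. The ITGB4 and ITGB5 members lay in promoters within the gene, 42 and 330 bp from a TSS. Semaphorins, plexins and axon guidance genes had members at 8 of 46 (1.63% of 490 regions). Long neuronal adhesion genes had members at 6 of 40, with 7 of 226 regions (3.10%), including the neurexin genes NRXN2 and NRXN3. For epithelial to mesenchymal transition the count was 3 of 18 genes, with 5 of 135 regions (3.70%), 3 of them at TCF4, a helix-loop-helix factor. Of these, chr18:52930173-52930950 scored 7.85 and 7.29, and chr18:52931229-52931856, close by, scored 5.67 and 6.66. Both held AP-1 cores.

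The drug and cell death lists held few members each, so their shares are descriptions beside the 2.32% of all protein-coding genes. Genes of 5-FU and pyrimidine metabolism had 2 of 153 regions (1.31%), at RRM2, a subunit of ribonucleotide reductase, and UPB1, the last enzyme of pyrimidine breakdown. Their scores were 3.76 and 5.61, and 3.95 and 5.11. ABC transporters had members at 7 of 34 genes (2.94% of 306 regions), with 3 at ABCG1, a sterol exporter, and 1 at ABCC2, an organic anion exporter, with 5.15 and 3.99. Apoptosis genes had 3 of 201 regions (1.49%), at APAF1, BIRC3 and BMF. Writers and erasers of histone acylation had members at 4 of 34 genes (1.65% of 364 regions), namely EP300, HDAC7, HDAC11 and TAF6L. Of the marker lists, EPCAM and KRT18 among the colon epithelium markers and PTPRC and VWF among the others had 1 member each.

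By chromosome, members made up between 1.80% (chromosome 22) and 3.09% (chromosome 4) of the H3K27ac regions of each autosome. On the X chromosome the share was 4.40% (3.57 to 5.36), with 94 members. FR-only regions as a whole were 13.2% of X regions. Of the FR-only regions on X, 33.2% were members (27.8 to 39.0), against 26.7% genome-wide. On chromosome 19 that share was 35.7% (30.8 to 40.9) and on chromosome 3 it was 21.6% (18.8 to 24.7).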

How the data were processed

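The analysis used 8 lists of CUT&Tag peaks, 1 per library, of the established cell line HCT15. Per the labels and the study's methods, the authors aligned reads to hg19 with Bowtie2, filtered them with SAMtools for unique, properly paired, non-duplicate reads, and ran MACS2 on each library, in broad mode for H3K27ac. Beside positions, the deposited lists give a score, the −log10 of the P value from MACS2. They hold no read counts, signal or summits, so the study's rule on signal could not be applied, and depth is unknown.

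Overlapping or touching peaks of a mark were joined, and 1 bp of overlap counted as presence. The members, the comparison classes and the gene lists were chosen with earlier results of these data known. GENCODE release 44, mapped to GRCh37, gave genes and annotation by the midpoint, with promoters first, then exons and introns. Sequence came from GRCh37. Motif cores were exact matches within 200 bp of the midpoint. Shares have exact 95% binomial intervals and differences 95% Newcombe intervals, which cover counting error only. Regions were not treated as replicates and no p was computed over them. Named regions are the 10 members with the highest lower HCT15-FR percentile on autosomes other than chromosome 8, and named genes are the 10 with the most members and all those of the 17 lists. Some of these are not reported here. Sequences shown are those of the first 2 named regions and of the highest-ranked member with a core. Replicate numbers are shared between lines, with no label saying what they pair. The code was tested on simulated lists and sequences. The tools were samtools 1.23.1, pysam 0.24.0, Biopython 1.88, matplotlib 3.10.9, scipy 1.17.1, pandas 2.3.3, numpy 2.4.6 and Python 3.11.15.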

Additional observations from a re-analysis of the deposited data

How the results depend on the processing

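Alternatives were run one at a time, those for differences between classes after the data were examined. Among settings other than leaving out a library, 5 of 8 left the number of members within 1.5 times the 3242 reported. It was 1885 with only the stronger 50% of each list, 5780 where an H3K23su region had to be in at least 2 of the 4 lists, and 5222 where H3K23su had to cover at least 50% of the region. Under the same 3 settings the intron share was 55.8%, 55.0% and 54.7%. The genes with a member numbered 1371 and 3666 under the first 2. The AP-1 share was 38.4% and 30.0% under the first 2, 29.9% with equal list lengths, 16.8% within 100 bp of the midpoint and 36.4% for members with 40% to under 50% GC. Annotation by any base gave 45.8% in introns and 11.1% in promoters, and protein-coding genes only gave 42.1% and 5.40%. Promoters within 2 kb of a TSS on either side held 21.4%, and 1118 genes had a member within 10 kb. With 1 library left out, members ran from 3417 to 13330, the intron share from 50.5% to 54.2%, the promoter share from 7.93% to 9.38%, the AP-1 share from 18.1% to 30.2% and genes from 2433 to 6896. The cause was not tested, but leaving out an HCT15-FR library of H3K27ac leaves presence to be decided by 1 list.

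The intron and intergenic differences between members and other FR-only regions kept their direction, with intervals clear of 0, under 4 of 4 settings and with each of 8 libraries left out. So did the AP-1 and FOX excess over Pa-only regions without H3K23su, under 3 of 3 settings, but the AP-1 excess of 13.2 points was 4.05 or 3.24 without HCT15-FR library 1 or 2 of H3K27ac, and its interval spanned 0 in 3 of 4 ranges of GC. The AP-1 difference from other FR-only regions turned to 4.82 points with the stronger 50%. It was -1.24 points where 2 of 4 lists were needed, with an interval that spanned 0 (-2.88 to 0.405). The FOX difference was -1.36 points with the stronger 50%, also spanning 0 (-3.12 to 0.492). With 1 library left out the AP-1 and FOX differences ran from -9.10 to -0.721 and from -4.83 to -1.22. The AP-1 interval spanned 0 without HCT15-FR library 2 of H3K23su, and the FOX interval without library 1. For the share of H3K27ac peaks lacking H3K23su, FR minus Pa, the difference stayed below 0 throughout, from -6.78 to -3.22 points. With a replicate block the difference was -5.05 points as before and the exact sign-flip p 0.5, the smallest that 2 pairs can give. Peak lists without depth cannot show how far a missing peak lay from the threshold.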
